A study of Mus musculus with 6 samples.

Results

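The genes described here are 34 genes of the endoplasmic reticulum (ER) that fold secreted and membrane proteins, move them into the organelle, or sense and clear misfolded ones. They were listed by symbol from the known members of the pathway, with earlier results of these data known, and all 34 were found among the 23951 genes of the deposited expression table. RNA was sequenced from 2 libraries each of 3 untreated mouse melanoma cell lines. B16-F1 is labelled as a line of low metastatic potential and came from a cell repository. B16-F1R2 is a lymph node metastatic variant, and B16-F1R2L is labelled as a line from a lung metastasis that was itself derived from a lymph node metastasis. The study's methods state that B16-F1R2 came from another laboratory and do not name B16-F1R2L. Metastatic origin and source of B16-F1R2 therefore cannot be told apart against B16-F1. The same may hold for B16-F1R2L, whose source is not given there. All lines were grown in the same medium with no treatment, and neither the labels nor the study's methods state whether a line was cultured separately for each library, so p-values measure the spread between these libraries, which may be technical.

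Proteins enter the ER through the Sec61 channel, are held by chaperones of the Hsp70 and Hsp90 families and by sugar-binding chaperones, and receive their disulfide bonds from protein disulfide isomerases. When unfolded proteins accumulate, the membrane sensors IRE1, PERK and ATF6 start the unfolded protein response (UPR). IRE1 splices the mRNA of Xbp1, ATF6 is cut to release a transcription factor, and both raise chaperone and degradation genes, while PERK slows translation and raises ATF4 and its targets. In pigment cells the glycoproteins of the melanosome, such as tyrosinase, are folded by this machinery. The files give gene totals, so the splicing of Xbp1 was not measured.

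The values are FPKM, by definition fragments per kilobase of transcript relative to the mapped reads of the library, and whether they were scaled further between libraries is not stated. FPKM is a measure per length in which levels of different genes can be set side by side. Differences are given as log2 fold changes on the scale log2(FPKM + 0.1), which understates changes of genes with low values, and were tested with limma, a linear model that pools the spread across genes, with p-values adjusted by Benjamini-Hochberg across 11379 genes, those at or above 1 FPKM in 2 or more libraries. A gene is called higher or lower where the adjusted p was under 0.05. The comparison of B16-F1R2 with B16-F1 is termed the first step and that of B16-F1R2L with B16-F1R2 the second step, and SE is the standard error of a log2 fold change. Of the 34 genes, 33 were tested. The smallest two-sided p that an exact permutation of 2 libraries against 2 allows is 0.333, and every call therefore rests on the spread pooled by limma. The FPKM summed to between 596657 and 672794 per library, and the depth, if no such scaling was made, was estimated at 11400000 to 15100000 reads from the smallest nonzero values of genes annotated with a single transcript. The 2 libraries of a line differed by a median of 0.067 to 0.095 on the log2 scale over all tested genes, and by 0.035 to 0.079 over the ER genes. The lines expressed all 7 melanocyte markers examined, with summed FPKM of 14970 to 15007 in B16-F1, then 7909 to 8125 in B16-F1R2 and 8924 to 8933 in B16-F1R2L, a sum carried by Mlana, Pmel, Dct and Tyrp1. Of the 7 markers Mitf went the other way in B16-F1R2L, with 112 and 127 FPKM against 92.3 and 88.7 in B16-F1. The part of any marker list in the results was not tested. Of 7 fibroblast markers, Dcn, Lum, Thy1 and Twist2 were listed at 0 in every library and the sum was 0.735 to 0.881 FPKM in B16-F1, 1.21 to 1.29 in B16-F1R2 and 1.86 to 2.31 in B16-F1R2L. Of 6 endothelial markers, Cdh5, Tek, Kdr and Lyve1 were listed at 0 and the sum was at most 2.38 FPKM. The 7 immune markers summed to at most 0.684 FPKM in B16-F1, to 13.6 to 13.7 in B16-F1R2 and 17.6 to 19.2 in B16-F1R2L, in the variants mostly Cd79a (12.4 to 17.1 FPKM) and in B16-F1 mostly Lyz2, while Ptprc, Cd3e and Itgam were listed at 0 in every library. In bulk RNA, fewer cells of a kind and less RNA per cell cannot be told apart.

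Many ER chaperone genes carry the ER stress element (ERSE) near their start, the site through which ATF6 and XBP1 are known to act. Its sequence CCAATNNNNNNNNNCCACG and the shorter form ERSE-II, which is ATTGG and CCACG with 1 base between them, were searched on both strands in windows of 250 bases before to 50 after each RefSeq gene start (GRCm38.p6). The table of windows held 29 of the 34 genes, Ero1l and Ero1lb under their current RefSeq symbols. Derl1, Manf, Hyou1, Sec61a1 and Atf6 were not among them. All 33 windows of these genes were found once, base for base, in NCBIM37 (mm9), the build of the deposited data, and positions are given in it. ERSE was present in the windows of 10 of the 29 genes, against 37 of all 27025 genes with a window (0.137%). ERSE-II was present in those of 2, against 12 of all genes (0.0444%). These totals include the listed genes, which were chosen as known members of the pathway. The sites are shown as a description, and their part in the differences below was not tested. Each line gives the strand on which the element reads 5′ to 3′, with 9 bases on either side, and the capitals mark the fixed bases of the element.
Hspa5, chr2:34627536-34627572, plus strand: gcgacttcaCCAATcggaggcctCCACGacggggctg
Hsp90b1, chr10:86168269-86168305, plus strand: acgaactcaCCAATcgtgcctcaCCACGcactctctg
Hsp90b1, chr10:86168374-86168410, minus strand: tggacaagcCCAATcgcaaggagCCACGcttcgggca
Creld2, chr15:88649941-88649977, minus strand: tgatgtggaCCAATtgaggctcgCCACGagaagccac
Calr, chr8:87370965-87371001, plus strand: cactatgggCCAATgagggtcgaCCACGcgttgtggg
Canx, chr11:50139293-50139329, minus strand: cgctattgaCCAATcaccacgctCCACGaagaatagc
Pdia6, chr12:17273288-17273324, plus strand: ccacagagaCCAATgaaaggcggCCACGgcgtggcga
Ero1lb, chr13:12657940-12657976, minus strand: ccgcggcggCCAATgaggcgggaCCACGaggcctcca
Dnajc3, chr14:119337040-119337076, plus strand: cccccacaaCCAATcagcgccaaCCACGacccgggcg
Syvn1, chr19:6046523-6046559, plus strand: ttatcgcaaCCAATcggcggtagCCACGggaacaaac
Derl3, chr10:75355978-75356014, minus strand: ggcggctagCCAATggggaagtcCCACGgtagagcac
Herpud1 (ERSE-II), chr8:96910268-96910296, plus strand: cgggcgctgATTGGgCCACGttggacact
Dnajb11 (ERSE-II), chr16:22857916-22857944, plus strand: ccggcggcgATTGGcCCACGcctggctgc

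The elements began between 44 and 212 bases before the start, except in Dnajb11, where ERSE-II began 8 bases after it. The UPR element TGACGTGG was found in the windows of 1 of the 29 genes, Txndc5, and in those of 0.714% of all genes. Only exact matches were searched, so an element that differs at a fixed base is not counted or marked. The promoter of Hspa5, which encodes the Hsp70 chaperone BiP, is printed over the 250 bases before the start (chr2:34627360-34627609, plus strand), with the exact match to ERSE in capitals.
Hspa5 promoter: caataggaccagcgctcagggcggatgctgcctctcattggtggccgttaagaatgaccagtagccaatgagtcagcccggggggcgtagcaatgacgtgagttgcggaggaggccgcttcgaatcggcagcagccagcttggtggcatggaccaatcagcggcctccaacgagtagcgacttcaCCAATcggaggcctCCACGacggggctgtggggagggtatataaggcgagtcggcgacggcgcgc

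In B16-F1R2, 23 of the 33 tested ER genes were lower than in B16-F1 and 3 were higher, where 27.2% of all tested genes were called lower and 28.2% higher. The median log2 fold change of the ER genes was -0.34, against 0.00 over all tested genes. The falls were moderate in size, up to 2.19-fold for Pdia4. In B16-F1R2L, 26 were lower than in B16-F1 and 2 were higher, against 27.1% and 29.5% of all tested genes, with a median of -0.48 against 0.02. Both comparisons share the B16-F1 libraries. Between the variants, 12 ER genes were lower and 4 higher in the second step, where 10.5% of all tested genes were called lower and 12.1% higher, and the median was -0.16 against 0.02. The 34 genes together held 6924 and 6740 FPKM in the B16-F1 libraries, then 5135 and 5070 in B16-F1R2 and lastly 4547 and 4352 in B16-F1R2L. As a share of all FPKM of the library this was 1.07% and 1.03%, then 0.763% and 0.795%, then 0.735% and 0.729%.

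The scale of the libraries bears on the variants more than on the first comparison. When each library was rescaled to the same FPKM sum, the median of all tested genes in B16-F1R2L against B16-F1R2 moved from 0.02 to 0.13, the share of higher among all calls from 53.7% to 80.7%, and the ER genes called lower from 12 to 5 and higher from 4 to 5. At that scale 15.2% of the ER genes were lower and 15.2% higher, against 4.08% and 17.0% of all tested genes. The 5 lower genes were Hspa5, Hyou1, Manf, Creld2 and Calr, and of the 12 only Manf and Calr were called under all 16 alternatives run. Against B16-F1 the same rescaling moved the median of B16-F1R2L to 0.13 and the share of higher calls from 52.1% to 67.0%, and 23 of the 26 lower calls remained. In B16-F1R2 against B16-F1 all 23 lower calls remained under each of the 3 scalings tried, and 18 of them under all 16 alternatives. The other 5 were Erp44, Dnajc10, Syvn1, Derl1 and Ero1lb, each lost without 1 or more of the B16-F1 and B16-F1R2 libraries.

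**Figure D1:**
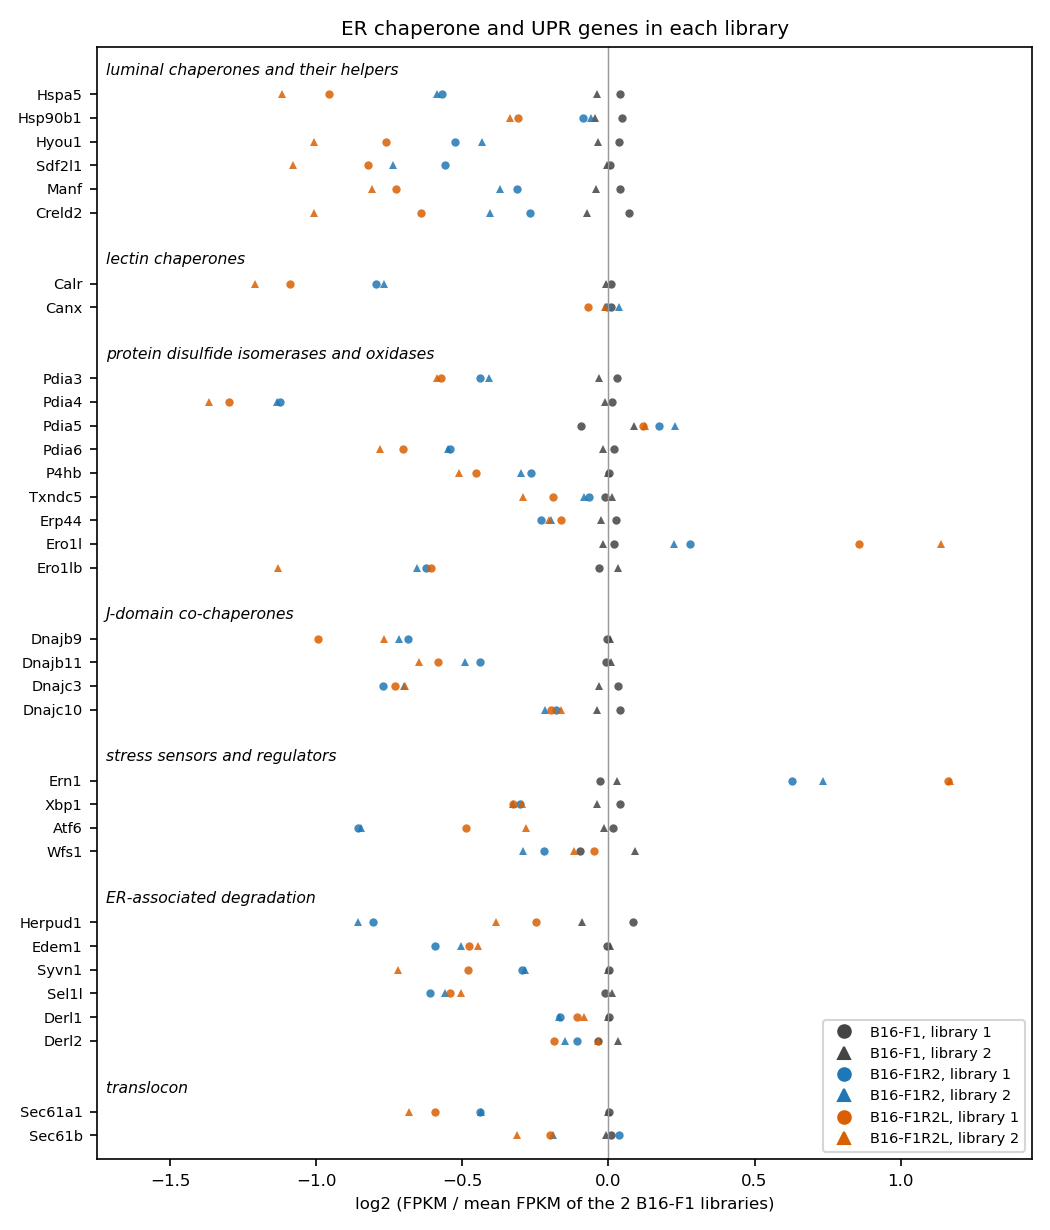
FPKM of the 33 tested ER genes in each library as log2 ratio to the mean of the 2 B16-F1 libraries (x axis), by role; circles are library 1 and triangles library 2 of each line. Most B16-F1R2 and B16-F1R2L points lie left of the B16-F1 points at 0, and Ern1 and Ero1l lie to the right of them.

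Of the 6 luminal chaperones and their helpers, 4 were lower in the first step and 5 were lower in the second. The shares of all tested genes called lower were 27.2% and 10.5%. Hspa5 (BiP), which binds unfolded chains and holds the UPR sensors inactive, had 918 and 869 FPKM in B16-F1, then 602 and 595 in B16-F1R2 and lastly 460 and 412 in B16-F1R2L. The libraries of the lines did not overlap and B16-F1R2L was lowest. Such separation of 2 libraries from 2, named here and below, was common over all 11379 tested genes. In the first step 4590 genes lay wholly above and 4513 wholly below, and in the second step 4087 and 3327. The log2 fold change was -0.58 (SE 0.065, adjusted p = 0.00053, limma) from B16-F1 to B16-F1R2 and -0.46 (adjusted p = 0.0087) from B16-F1R2 to B16-F1R2L. Without library 1 of B16-F1R2 the second of these calls was lost, with an adjusted p of 0.052. From B16-F1 to B16-F1R2L the fall was 2.05-fold.

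Hyou1, an Hsp110-type exchange factor of BiP, followed the same order with 123 and 117, 83.4 and 88.8, and 70.7 and 59.6 FPKM. Its lower call in the second step was lost under 5 of the 16 alternatives run. Manf, a small secreted protein that binds BiP, had 131 and 124, 103 and 98.7, and 77.0 and 72.8 FPKM, and its lower value in B16-F1R2L than in B16-F1R2 (log2 fold change -0.43, standard error 0.051, adjusted p = 0.0060) was called under all 16 alternatives run. Neither gene overlapped between lines. Sdf2l1, a partner of the ER J-domain proteins, had 147 and 146, 99.3 and 87.9, and 82.9 and 69.3 FPKM. It fell from B16-F1 to B16-F1R2 (log2 fold change -0.65), and its value of -0.30 between the variants did not pass the test (adjusted p = 0.066). Creld2, a disulfide isomerase-like protein induced by ER stress, had 96.2 and 87.0, 76.0 and 69.2, and 58.7 and 45.5 FPKM. Its difference of -0.33 between B16-F1R2 and B16-F1 missed the threshold (adjusted p = 0.056), and that of -0.49 between the variants passed it (adjusted p = 0.036) and was lost under 7 of the 16 alternatives. Hsp90b1 (GRP94), the Hsp90 of the ER, moved least in this group. It had 602 and 564 FPKM in B16-F1, then 549 and 559 in B16-F1R2 and lastly 471 and 462 in B16-F1R2L, at a log2 fold change of -0.07 (adjusted p = 0.25) in the first step and -0.25 (adjusted p = 0.019) in the second, the latter lost under 5 of the 16 alternatives.

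The 2 lectin chaperones parted. Calr (calreticulin), a soluble calcium-binding chaperone for glycoproteins, was the ER gene with the highest FPKM in B16-F1, at 1180 and 1164, against 675 and 688 in B16-F1R2 and finally 550 and 506 in B16-F1R2L. The log2 fold change was -0.78 (SE 0.055, adjusted p = 7.6e-05) in the first step and -0.37 (adjusted p = 0.0096) in the second, and the lower value between the variants was called under all 16 alternatives run. Canx (calnexin), its membrane-bound counterpart, had 287 and 284, 285 and 293, and 272 and 283 FPKM. The libraries of B16-F1 and B16-F1R2 overlapped and those of B16-F1R2L lay just below them, no comparison of Canx passed the test at this setting, and its fitted differences lay between -0.06 and 0.02 with a standard error of 0.042. Between B16-F1R2L and B16-F1 the sign of Canx flipped to 0.06 after rescaling to equal sums and to 0.16 after quantile normalization (adjusted p = 0.049), and between the variants it flipped to 0.05 and 0.07 under the same settings. Both genes have an ERSE in the window.

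Among the disulfide isomerases and oxidases, 6 of 9 genes were lower and 2 higher in the first step. The shares over all tested genes were 27.2% lower and 28.2% higher. Pdia4 (ERp72), a disulfide isomerase of the lumen, had the largest fall of the ER genes from B16-F1. Its FPKM were 321 and 316 in B16-F1, then 146 and 145 in B16-F1R2 and lastly 129 and 124 in B16-F1R2L, a log2 fold change of -1.13 (SE 0.042, adjusted p = 5.9e-06) in the first step and -0.20 (adjusted p = 0.022) in the second. The libraries were separate in all lines, and the step between the variants was -0.09 (adjusted p = 0.14) after rescaling to equal sums and lost its call under 9 of the 16 alternatives. Pdia6, which also restrains IRE1, went from 366 and 356 to 248 and 247 and to 222 and 210 FPKM. Pdia3 (ERp57), the isomerase that works with calreticulin and calnexin, went from 396 and 380 to 286 and 292 and to 261 and 258. P4hb, the archetypal disulfide isomerase, had 694 FPKM in both B16-F1 libraries, then 577 and 564 in B16-F1R2 and lastly 506 and 486 in B16-F1R2L. In each of the 3 genes no libraries of different lines overlapped. For Pdia6, Pdia3 and P4hb the log2 fold changes of the first step were -0.55, -0.42 and -0.28, and those of the second were -0.20, -0.16 and -0.20, the latter lost under 9, 12 and 9 of the 16 alternatives, rescaling to equal sums among them. Erp44, which retains oxidases in the early secretory pathway, was lower in the first step, by -0.21 (adjusted p = 0.0096), a call lost without library 1 of B16-F1 or library 1 of B16-F1R2 (adjusted p up to 0.071). Txndc5, a thioredoxin-domain isomerase, had 176 and 179, 169 and 167, and 156 and 145 FPKM and was called lower only against B16-F1 in B16-F1R2L (log2 fold change -0.24, adjusted p = 0.0056), among these 3 comparisons, a call lost after quantile normalization (adjusted p = 0.0651). Pdia5, a further isomerase, was higher in the first step by 0.20 (17.0 and 19.3 against 20.5 and 21.2 FPKM, adjusted p = 0.049), a call lost under 10 of the 16 alternatives.

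The ER oxidases, which pass electrons from the isomerases to oxygen, moved in opposite directions. Ero1l (ERO1-alpha) rose, with 72.5 and 70.6 FPKM in B16-F1, then 86.9 and 83.5 in B16-F1R2 and lastly 130 and 157 in B16-F1R2L. The lines did not overlap, and the libraries of B16-F1R2L lay far above all others. The log2 fold change between the variants was 0.75 (SE 0.088, adjusted p = 0.0058), called under all 16 alternatives run, while the smaller rise of 0.25 from B16-F1 to B16-F1R2 lay at the threshold (adjusted p = 0.0497). That smaller call was lost under 9 of the 16 alternatives, rescaling to equal sums among them (adjusted p = 0.077, limma). Of the stretches of 50 bases in the Ero1l transcript, 23.1% also occur elsewhere in the genome, so part of its reads could have been assigned to other places. Ero1lb (ERO1-beta), known from secretory tissues, was low throughout and fell, with 2.88 and 3.01, 1.91 and 1.87, and 1.93 and 1.34 FPKM (log2 fold change -0.61 from B16-F1 to B16-F1R2, adjusted p = 0.026). That call was lost without any 1 of the 4 libraries compared (adjusted p up to 0.097), and the one in B16-F1R2L against B16-F1 (-0.83, adjusted p = 0.0081) was not lost in any of the 15 alternatives that tested the gene. Of its stretches of 50 bases, 13.9% occur elsewhere in the genome.

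All 4 J-domain co-chaperones, which hand clients to BiP, were lower in both variants than in B16-F1, and none of the 4 was called between the variants. Against B16-F1, 27.2% of all tested genes were lower in B16-F1R2 and 27.1% in B16-F1R2L. Between the variants 10.5% of all tested genes were lower and 12.1% higher. Dnajc3 (p58IPK), also an inhibitor of the kinase PERK, had 65.3 and 62.4 FPKM in B16-F1, then 37.4 and 39.3 in B16-F1R2 and lastly 38.5 and 39.4 in B16-F1R2L. The variants overlapped, with a difference of 0.02 (standard error 0.048), and both lay far below B16-F1 (log2 fold changes -0.73 and -0.71). Dnajb9 (ERdj4), known as an XBP1 target that represses IRE1, had 18.4 and 18.5, 11.5 and 11.2, and 9.26 and 10.8 FPKM and changed by -0.70 on the log2 scale (adjusted p = 0.00066) in the first step. Dnajb11 (ERdj3), a secreted co-chaperone, had 126 and 127, 93.3 and 89.8, and 84.3 and 80.7 FPKM. Dnajc10 (ERdj5), a reductase of degradation substrates, fell least, from 61.7 and 58.5 to 53.0 and 51.7 and to 52.4 and 53.7 FPKM. Its lower call in B16-F1R2L against B16-F1 was lost after rescaling to equal sums (log2 fold change -0.08, adjusted p = 0.28), and that in B16-F1R2 was lost without library 1 of B16-F1 (adjusted p = 0.089) or library 2 of B16-F1R2.

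The sensors did not move together. Ern1, which encodes the sensor IRE1-alpha, rose at each step, with 4.50 and 4.69 FPKM in B16-F1, then 7.11 and 7.64 in B16-F1R2 and lastly 10.3 in both libraries of B16-F1R2L. The libraries did not overlap, the log2 fold change was 0.67 (SE 0.072, adjusted p = 0.00045) in the first step and 0.48 (adjusted p = 0.0098) in the second, and B16-F1R2L lay 2.22-fold above B16-F1. Xbp1, whose mRNA IRE1 splices, was lower in both variants, with 85.6 and 81.0 FPKM in B16-F1, then 67.5 and 66.4 in B16-F1R2 and lastly 66.4 and 67.9 in B16-F1R2L. The variants overlapped for Xbp1. Their difference was 0.00 with a standard error of 0.045, and its sign changed with the scaling.

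Atf6, the sensor that becomes a transcription factor, had its low point in B16-F1R2. Its FPKM were 16.6 and 16.3 in B16-F1, then 9.06 and 9.14 in B16-F1R2 and lastly 11.7 and 13.5 in B16-F1R2L. No libraries overlapped, with a log2 fold change of -0.85 (SE 0.078, adjusted p = 0.00023) in the first step and 0.46 (adjusted p = 0.013) in the second. Without library 1 of B16-F1R2 the higher values of Ern1, Atf6 and Herpud1 in B16-F1R2L than in B16-F1R2 were no longer called, and the highest adjusted p over the alternatives was 0.0622, 0.0710 and 0.0501, respectively. Wfs1, a membrane protein of the ER that restrains ATF6 signalling, had between 4.71 and 6.15 FPKM in all libraries and passed no test at the reported setting, while its lower value in the first step passed after quantile normalization (adjusted p = 0.027).

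**Figure D2:**
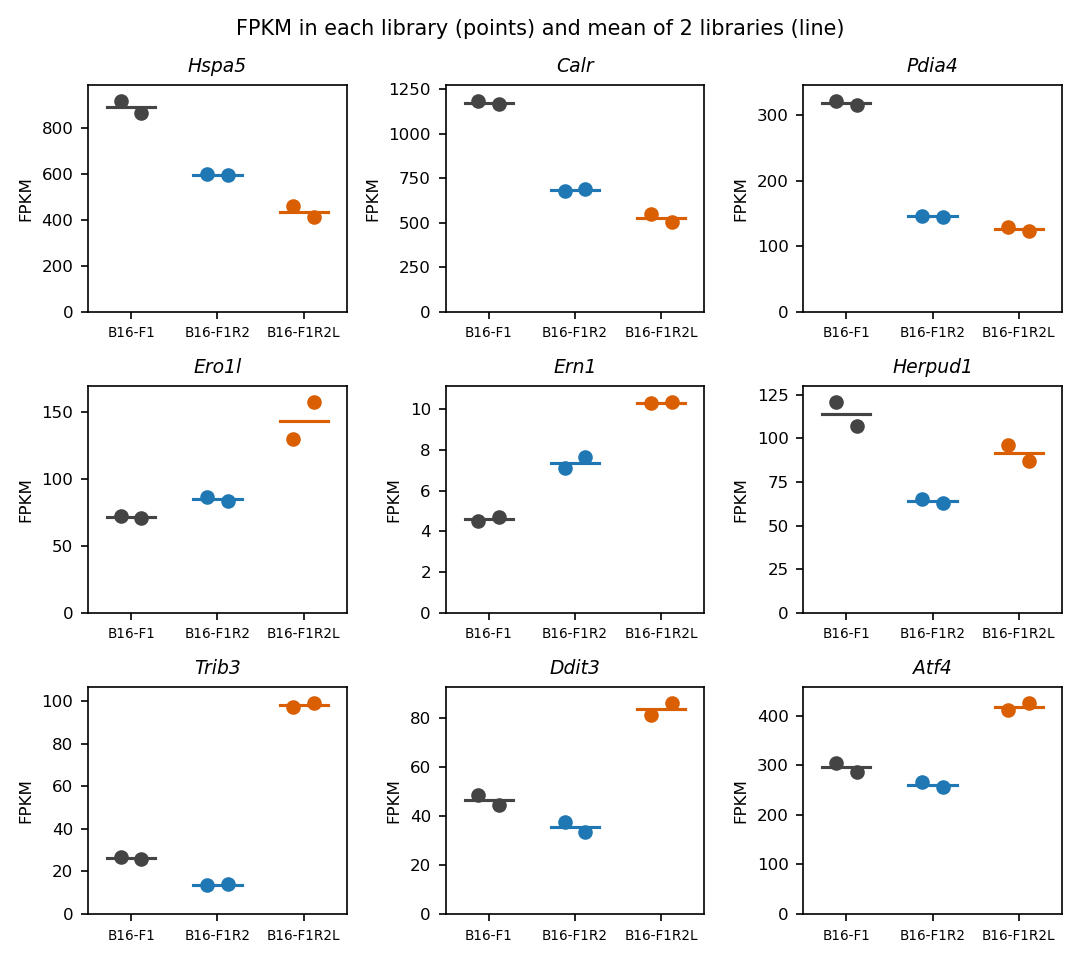
FPKM (y axis, from 0) in the libraries of each line, with points for libraries and a line for the mean of 2. Hspa5, Calr and Pdia4 step down from B16-F1 to B16-F1R2L, Ero1l and Ern1 step up, and Herpud1, Trib3, Ddit3 and Atf4 have their lowest values in B16-F1R2.

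Of the 6 tested genes of ER-associated degradation, 5 were lower in the first step, and 1 was lower and 1 higher in the second. Over all tested genes 27.2% were lower in the first step, and 10.5% were lower and 12.1% higher in the second. Herpud1, an adaptor of the degradation complex that responds to both ATF6 and ATF4, had 121 and 107 FPKM in B16-F1, then 65.1 and 62.8 in B16-F1R2 and lastly 95.9 and 87.2 in B16-F1R2L. It shared with Atf6 the lowest values in B16-F1R2 and no overlap between lines, with log2 fold changes of -0.83 (SE 0.073, adjusted p = 0.00019) and then 0.52 (adjusted p = 0.0087). Edem1, a lectin that passes misfolded glycoproteins on, had 53.4 and 53.8, 35.5 and 37.8, and 38.5 and 39.3 FPKM. Sel1l, the scaffold of the HRD1 ligase, had 25.8 and 26.2, 17.0 and 17.6, and 17.8 and 18.3. The 2 genes fell by log2 fold changes of -0.55 and -0.58 in the first step, and their values of 0.09 and 0.06 in the second did not pass the test. Syvn1, the ligase HRD1 itself, was lower at each step, with 30.1 and 30.0, 24.5 and 24.6, and 21.5 and 18.2 FPKM (adjusted p = 0.021 and 0.038). The first of these calls was lost without any 1 of the B16-F1 and B16-F1R2 libraries (adjusted p up to 0.083) and the second under 9 of the 16 alternatives (up to 0.138). Derl1, a membrane protein through which substrates leave the ER, fell by 0.17 on the log2 scale in B16-F1R2 (adjusted p = 0.0092), a call lost without either B16-F1 library (up to 0.069), and its relative Derl2 had between 17.1 and 19.9 FPKM in all libraries and passed no test. Derl3, the derlin of secretory tissues, had 0.0840 and 0.177 FPKM in B16-F1 and was listed at 0 in the other libraries. It stayed under 1 FPKM and was not tested, and 1 read was worth about 0.0571 and 0.0657 FPKM of this gene in the B16-F1 libraries at this estimated depth.

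Of the Sec61 channel, the pore subunit Sec61a1 had 267 and 266 FPKM in B16-F1, then 196 and 197 in B16-F1R2 and lastly 177 and 166 in B16-F1R2L, with a log2 fold change of -0.44 (SE 0.044, adjusted p = 0.00032) in the first step and -0.20 (adjusted p = 0.026) in the second, the latter lost under 9 of the 16 alternatives. The small subunit Sec61b had 380 and 375, 387 and 331, and 328 and 304 FPKM. The B16-F1 and B16-F1R2 libraries of Sec61b overlapped, and its log2 fold change of -0.08 between them changed sign, to 0.03, without library 2 of B16-F1R2. Of the stretches of 50 bases of Sec61b, 13.5% occur elsewhere in the genome.

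**Figure D3:**
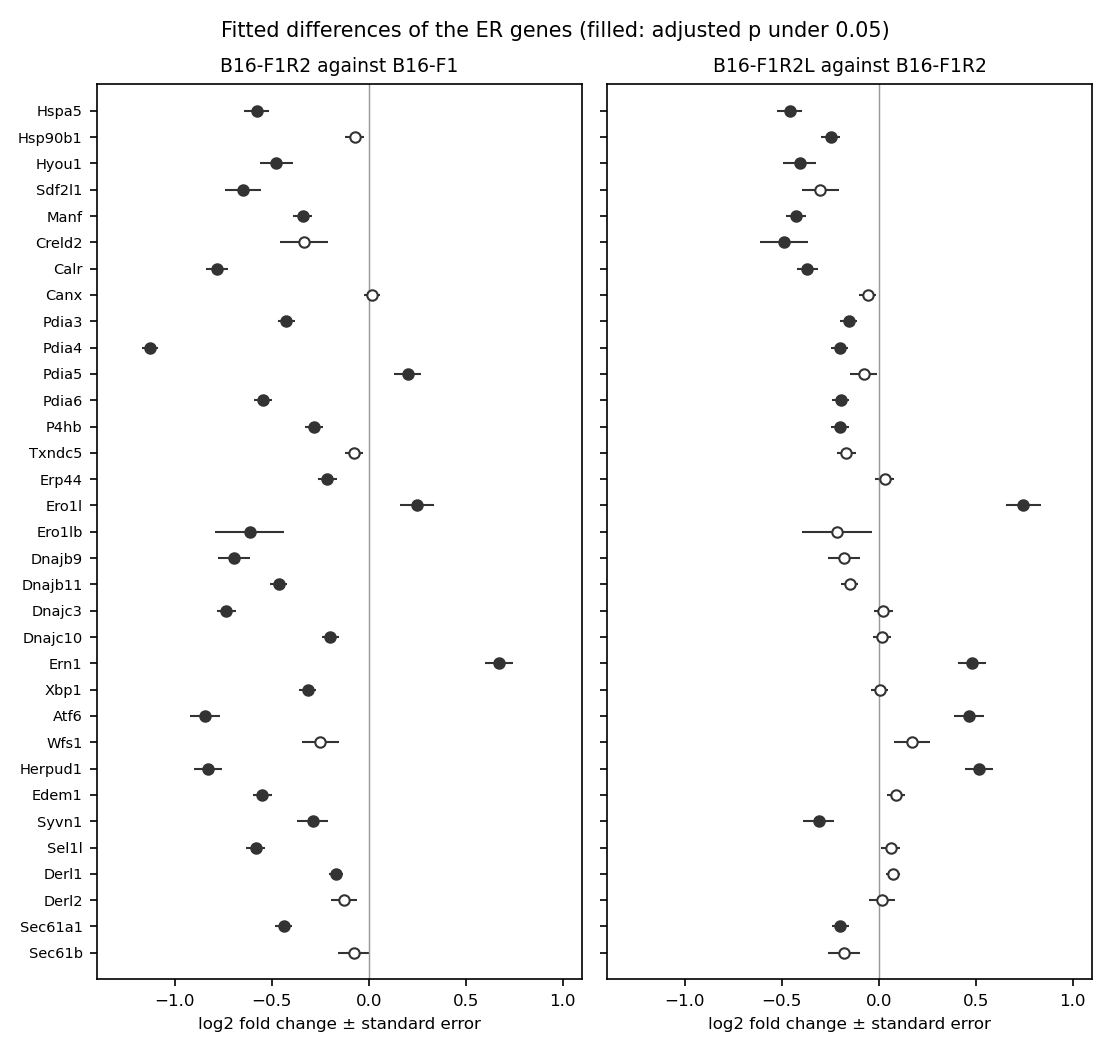
Log2 fold change with its standard error (x axis) of each tested ER gene in B16-F1R2 against B16-F1 (left) and in B16-F1R2L against B16-F1R2 (right); filled points have an adjusted p under 0.05. On the left 23 filled points lie below 0 and 3 above, on the right 12 and 4.

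The genes with an ERSE or ERSE-II in the window can be set beside those without. Of the 11 tested genes with an element, 8 were lower in the first step and none was higher, where 27.2% of all tested genes were lower and 28.2% higher, with a median log2 fold change of -0.55 and a range from -0.83 to 0.02. Of the 17 whose window held neither, 10 were lower and 3 higher, with a median of -0.25 and a range from -1.13 to 0.67. In B16-F1R2L against B16-F1R2, 6 of the 11 were lower and 1 was higher, with a median of -0.22, against 3 lower and 2 higher of the 17, with a median of 0.00, where the shares of all tested genes were 10.5% and 12.1%. After rescaling to equal sums, 3 of the 11 were lower and 1 was higher, and none of the 17 was lower and 2 were higher, against 4.08% lower and 17.0% higher of all tested genes at that scale. The ranges overlapped in both comparisons. Pdia4, with the largest fall, and Ern1 and Ero1l, with the largest rises, have windows without an exact match to either element.

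In the GENCODE vM1 annotation of NCBIM37 the genes named most lie at chr2:34627490-34632051 (Hspa5, plus strand), chr8:87365749-87370833 (Calr, minus), chr6:47746141-47763511 (Pdia4, minus), chr14:45902879-45938237 (Ero1l, minus), chr11:106255964-106349166 (Ern1, minus), chr1:172634588-172797902 (Atf6, minus) and chr8:96910338-96919277 (Herpud1, plus). Exons of Hsp90b1, Manf, Pdia3, Pdia6, Txndc5, Syvn1 and Derl2 overlap exons of a gene on the opposite strand, and those of Hsp90b1 and Pdia4 exons of a gene on the same strand. Whether strand was used in counting is not stated, so reads of these genes and their neighbours may not be separated.

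To place the 34 genes in the wider ER, a list of 114 further genes of the same compartment was set up by role, of which 112 were in the table and 106 were tested. Of these, 51 were lower and 13 higher in the first step, with a median log2 fold change of -0.14, which is 48.1% lower and 12.3% higher against 27.2% and 28.2% of all tested genes. Glycan trimming enzymes and lectin cargo receptors were lower for 7 of 9 genes and higher for 1 (median -0.42), and subunits of the oligosaccharyl transferase, which attaches the glycans, were lower for 6 of 9 and higher for none (median -0.28). Of 18 further translocon and signal peptidase genes, 5 were lower and 2 higher (median -0.07), and the share called lower, 27.8%, was close to that of all tested genes. The largest rise was at Fkbp10, a prolyl isomerase that acts on collagen, with 1.47 and 1.52 FPKM in B16-F1, then 23.6 and 23.5 in B16-F1R2 and lastly 21.9 and 21.4 in B16-F1R2L (log2 fold change 3.89 in the first step, adjusted p = 2.3e-07). Fkbp11, a further prolyl isomerase, was higher in B16-F1R2 than in either other line, with 67.2 and 69.5 FPKM against 43.5 and 41.6 in B16-F1 and 48.4 and 41.5 in B16-F1R2L. Calr3, a testis form of calreticulin, had 0.480 and 0.684 FPKM in B16-F1, then 0.933 and 1.32 in B16-F1R2 and lastly 1.51 and 1.33 in B16-F1R2L. It reached the minimum of 1 FPKM only in the variants, so its calls as higher there carry no weight, and that in B16-F1R2 was lost after quantile normalization and without library 1 of B16-F1 or library 2 of B16-F1R2. In B16-F1R2L against B16-F1, 54 further genes were lower (50.9%, against 27.1% of all tested genes) and 21 higher (19.8%, against 29.5%), and the falls past the threshold were largest at Eif2ak3, Aup1 and Creb3l2. Aup1, a degradation factor, had 228 and 239, 153 and 152, and 146 and 139 FPKM, and Creb3l2, a transcription factor cleaved like ATF6, had 31.6 and 32.1, 18.6 and 19.5, and 19.8 and 19.3. Between the variants, 19 further genes were lower (17.9%, against 10.5% of all tested genes) and 13 higher (12.3%, near the 12.1% of all tested genes), and after rescaling to equal sums 5 were lower and 18 higher (4.72% and 17.0%, against 4.08% and 17.0% of all tested genes at that scale). The falls were largest at Fkbp11, Vimp, a degradation factor with 115 and 104 FPKM in B16-F1R2 against 73.4 and 72.1 in B16-F1R2L, and Txndc11, with 32.8 and 30.7 against 26.0 and 22.3. The call of Vimp held under all 16 alternatives, and that of Txndc11 was lost without either library of B16-F1R2 or library 2 of B16-F1R2L (adjusted p up to 0.105).

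Of the 9 listed genes of the PERK and ATF4 arm, 6 were lower and 1 higher in the first step, where 27.2% of all tested genes were lower and 28.2% higher. In the second step 7 were higher and none lower, where 12.1% of all tested genes were higher and 10.5% lower. Eif2ak3, which encodes PERK, was lower in both variants, with 22.8 and 22.9 FPKM in B16-F1, then 13.1 and 14.2 in B16-F1R2 and lastly 13.6 and 13.1 in B16-F1R2L. Its variants overlapped. Atf4, the transcription factor of the arm, had 305 and 288, 267 and 256, and 411 and 426 FPKM, with a log2 fold change of 0.68 (SE 0.050, adjusted p = 0.0015) between the variants. Ddit3 (CHOP), a transcription factor linked to cell death under stress, had 48.8 and 44.4, 37.6 and 33.6, and 81.5 and 86.2 FPKM.

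Trib3, a pseudokinase induced by ATF4 and CHOP, differed most between the variants, with 27.0 and 25.9 FPKM in B16-F1, then 13.6 and 14.0 in B16-F1R2 and lastly 97.4 and 99.1 in B16-F1R2L, a 7.09-fold difference between the variants (log2 fold change 2.83, standard error 0.046, adjusted p = 2.6e-06). Chac1, a glutathione-degrading enzyme, had 28.4 and 22.9, 9.12 and 8.34, and 39.1 and 36.5 FPKM, and Atf3, a further transcription factor, had 5.06 and 5.27, 2.88 and 2.85, and 6.63 and 6.54. For Trib3, Chac1, Atf3, Ddit3 and Atf4 alike, and for Ppp1r15b, B16-F1R2 was the lowest and B16-F1R2L the highest line, with no overlap. Ppp1r15a (GADD34), which restores translation, had 9.35 and 9.02, 9.75 and 9.64, and 13.2 and 15.1 FPKM and was higher in the second step by 0.54 (adjusted p = 0.0096), a call lost without library 1 of B16-F1R2 (adjusted p = 0.0588). Ppp1r15b, its constitutive relative, was also called higher there. The 9 listed genes include Eif2a, an initiation factor that is not the substrate of PERK, and it was the 1 gene called higher in B16-F1R2.

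**Figure D4:**
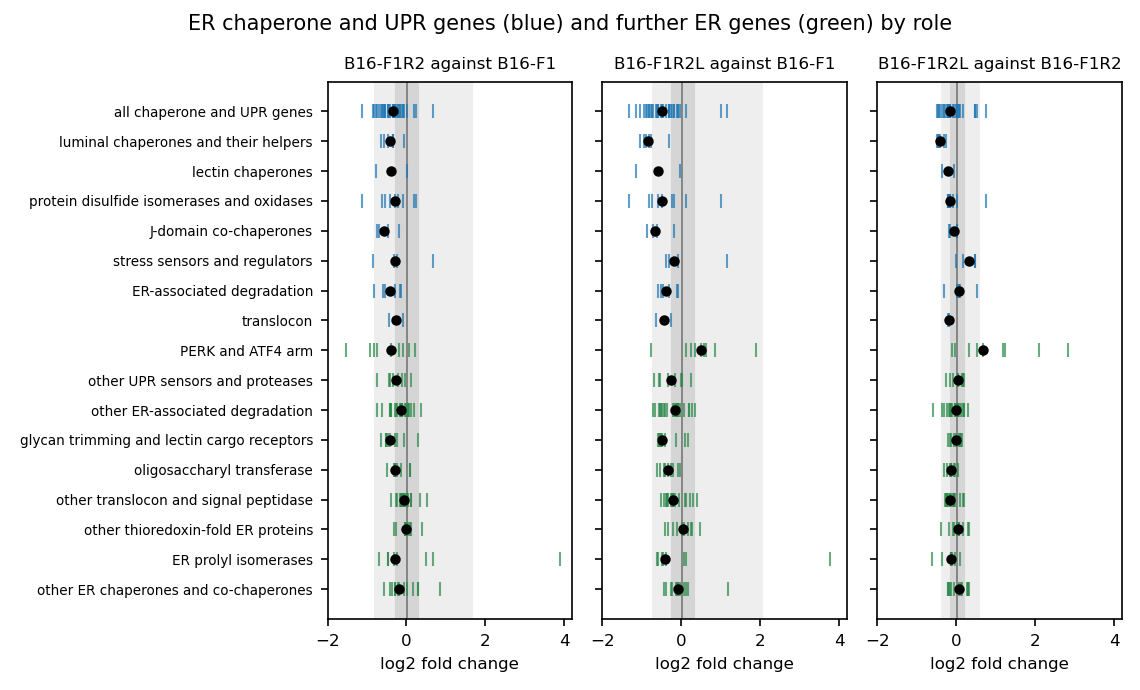
Log2 fold changes (x axis) of the tested ER genes (blue ticks) and further ER genes (green ticks) by role in the 3 comparisons, with the median of each role as a black point; the dark band spans the quartiles and the light band the 5th to 95th percentile of all tested genes. The median of the PERK and ATF4 arm lies left of the line of all genes in B16-F1R2 and right of it in both comparisons of B16-F1R2L.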

How the data were processed

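The authors sequenced polyadenylated RNA from 2 libraries of each of 3 lines with a stranded kit (50 bases, single-end), and reads were placed on NCBI37/mm9 by TopHat2 2.0.10 and Bowtie 1.0.0, allowing reads at several positions. The authors deposited 1 table of FPKM values for 23951 genes, with replicates not pooled. The authors used DESeq2 for differential expression, the submitters' processing notes name Cuffnorm with no role given, and the gene annotation is not given in the sources used here. FPKM are not counts, and how multiply placed reads were shared is not stated. Groups and replicate numbers came from the sample labels.

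From these values log2(FPKM + 0.1) was computed for the 11379 genes that reached 1 FPKM in 2 or more libraries and fitted over all 6 libraries with limma 3.58.1 in R 4.3.3 (eBayes with a trend, line as the only term, Benjamini-Hochberg adjustment). The fit was tested on simulated data. The members and lists were chosen with earlier results of these data known. Named were all members, 6 genes of the PERK and ATF4 arm, and the further ER genes with the largest called changes (3 in each direction per comparison); Ppp1r15b, Eif2a, Mitf, Cd79a and other single markers were named after their values were seen. Gene positions came from GENCODE vM1, and repeated 50-base stretches were searched in the whole NCBIM37 genome. Python 3.11.15 with pandas 2.3.3 served for other steps. Alternatives were a pseudocount of 1 or 0.01, no filter or one at 5 FPKM, 3 scalings (equal sums, median ratios, quantile normalization), a fit with no trend or of the 4 compared libraries alone, a replicate block, and each library left out.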

Additional observations from a re-analysis of the deposited data

Results flagged for a closer look

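Against B16-F1, 5 genes of the PERK and ATF4 arm were called lower in B16-F1R2 and higher in B16-F1R2L (limma). Both comparisons share the B16-F1 libraries, and the difference between the variants is the difference of the 2 values, so that it was fixed in sign by this choice of genes and is given as a description. The log2 difference of B16-F1R2L from B16-F1R2 was 2.83 for Trib3 (-0.94 and 1.89 against B16-F1), 2.10 for Chac1 (-1.54 and 0.57), 1.24 for Ddit3 (-0.39 and 0.85), 1.17 for Atf3 (-0.83 and 0.34) and 0.68 for Atf4 (-0.18 and 0.50). Against B16-F1, the lower call of Atf4 in B16-F1R2 and the higher call of Atf3 in B16-F1R2L were each lost under at least 1 scaling and with at least 1 library left out, so the opposite directions held under all 16 alternatives for Trib3, Chac1 and Ddit3. Groups of 2 libraries are too small for a test of single outlying libraries.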

How the results depend on the processing

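With 2 libraries a line the calls of small differences depend on the setting, most of all between the variants, and the cause was not tested beyond the shift of the median under rescaling. In B16-F1R2 against B16-F1, 18 of the 23 lower calls and 1 of the 3 higher calls (Ern1) held under all 16 alternatives; in B16-F1R2L against B16-F1, 20 of 26 and both higher calls (Ero1l and Ern1); between the variants, 2 of 12 (Manf and Calr) and 1 of 4 (Ero1l). The higher calls of B16-F1R2 against B16-F1, 3 as reported, were 1 with no filter, after rescaling to equal sums and without a trend, and ran from 1 to 2 with each library left out, at 1 without B16-F1 library 1, B16-F1R2 library 1 or B16-F1R2 library 2. Between the variants the 12 lower calls were 5 after rescaling, 5 after quantile normalization, 4 without a trend and 5 from only the 4 libraries compared, and ran from 2 to 13 with each library left out (6 without either B16-F1 library, 2 and 4 without library 1 and 2 of B16-F1R2, 13 and 3 without library 1 and 2 of B16-F1R2L); the 4 higher calls were 5 after rescaling, and ran from 1 (without B16-F1R2 library 1) to 4 with a library left out.

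For the further ER genes, the 13 higher calls between the variants were 18 after rescaling, 8 without a trend and 8 from the 4 libraries, and 6 to 11 with a library left out (6 without B16-F1R2 library 1); the 19 lower calls were 12 with no filter, 5 after rescaling, 11 after quantile normalization, 8 without a trend, 10 from the 4 libraries, and 2 to 18 with a library left out (2 without B16-F1R2 library 1, 4 without B16-F1R2L library 2). The 21 higher calls of B16-F1R2L against B16-F1 were 25 after rescaling and 23 with no filter, and ran from 13 (without B16-F1 library 2) to 20 with a library left out.

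Among the 33 tested ER genes, signs changed only in comparisons where the gene was not called at the reported setting. In B16-F1R2L against B16-F1, rescaling gave 0.061 for Canx, 0.022 for Wfs1 and 0.0073 for Derl1, and quantile normalization gave 0.16 for Canx and 0.019 for Derl1. Between the variants, rescaling gave 0.051 for Canx and 0.031 for Pdia5, quantile normalization 0.068 for Canx and -0.0045 for Derl2, and median ratios -0.0016 for Dnajc10, -0.016 for Xbp1 and -0.0042 for Derl2. With each library left out, B16-F1R2 against B16-F1 ran from -0.0041 to 0.036 for Canx and from -0.19 to 0.035 for Sec61b, B16-F1R2L against B16-F1 from -0.17 to 0.015 for Wfs1, and the variants from -0.46 to 0.031 for Ero1lb, -0.013 to 0.060 for Dnajc3, -0.012 to 0.021 for Xbp1 and -0.058 to 0.090 for Derl2.

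Whether same-numbered libraries were prepared together is not stated in the sources used here, and 2 libraries a line cannot decide it. The deviations of same-numbered libraries correlated at 0.052, 0.079 and -0.10 over 11379 genes between pairs of lines. With a replicate block, 24 ER genes were called lower and 2 higher in B16-F1R2 against B16-F1, 26 and 2 in B16-F1R2L against B16-F1, and 12 and 4 between the variants.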
